A study of Mus musculus with 3 samples.

Results

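The UDP-glucuronosyltransferases (UGT), sulfotransferases (SULT), carboxylesterases (CES) and glutathione S-transferases (GST) were examined as 76 genes out of 25206 on the arrays, 23740 of them with a gene symbol. They were taken by symbol, as 17 UGT, 21 SULT, 19 CES and 19 GST genes. The families were picked with differences between these arrays already known, Ces1c being among the largest, so every count below is a description. The series asked how isoproterenol, a beta-adrenergic agonist given to injure the heart, changes the left ventricle, and how the injured ventricle differs when INSL6, a peptide of the relaxin family, is infused. All mice were male C57BL/6N animals aged 8 to 12 weeks, and left ventricle was collected at 14 days. Control mice had a pump with vehicle and saline injections, Iso mice the vehicle pump and intraperitoneal isoproterenol at 50 mg/kg daily over 11 days, and Iso+Insl6 mice the same isoproterenol with a pump that delivered 50 to 70 nmol/kg of INSL6 protein a day under the skin. RNA from 3 samples was pooled for each of the 3 arrays, which leaves 1 array per group, no error between animals and no test of any difference.

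These families handle foreign chemicals, hormones, bile acids and lipids. UGTs attach glucuronic acid or other sugars from nucleotide donors, SULTs attach sulfate from the donor PAPS, GSTs attach the tripeptide glutathione to reactive molecules, and carboxylesterases split esters, including drug esters and stored lipids. Liver carries many enzymes of these families, and cardiac muscle is known for glutathione-dependent defence against lipid peroxidation products.

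Values are log2 expression, so a difference of 1 is 2-fold. Background was set at 4.16, the median of all values, and a gene was counted as higher or lower where it reached that level on at least 1 array of the pair and differed by 1.5-fold (log2 0.585) or more. Where the lower array lay below background, the fold is given as a bound against 4.16. Levels of different genes come from different probes and are not ranked against each other. Between arrays Pearson's r was 0.995 to 0.997 across probe sets, which cannot stand in for replicates. The ventricle label fitted its markers, since all 8 cardiomyocyte genes (Myh6, Actc1, Tnnt2, Tnni3, Myl2, Myl3, Ryr2 and Pln) lay between 10.63 and 12.45 on every array and differed by at most 0.14.

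Much of the GST family was above background in this tissue, and most of the other families was not. On the Control array 14 of 19 GST genes reached background, against 4 of 19 CES, 1 of 21 SULT and 0 of 17 UGT genes. In all, 27 members reached it on at least 1 array, namely 15 GST, 7 CES, 3 UGT and 2 SULT genes. The other 49 lay below it on all 3 arrays, at 0.97 to 4.08. The number of members above background was 19 on Control, 17 on Iso and 26 on Iso+Insl6. Of all 23740 genes with a symbol, 12264 reached background on Control, 12300 on Iso and 12272 on Iso+Insl6. On at least 1 array 12513 did.

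The Iso+Insl6 array was set against the Iso array to see what INSL6 adds to isoproterenol. Of 26 members above background on that pair, 11 were at least 1.5-fold higher with INSL6 (42.3%) and none lower, where over all 12457 genes 1.49% were higher and 0.506% lower. At 2-fold by listed values 7 of the 26 were higher, beside 0.979% of all genes. Among these, Ugt3a2, Sult2a8 and Ces3b were at least 1.54-fold, 1.83-fold and 1.36-fold higher against background, short of 2-fold. Over all 76 members at any level 19 were 1.5-fold higher and 1 lower, beside 1.32% and 0.80% of 23740 genes. The 11 were Ugt2b1, Ugt2b34 and Ugt3a2, Sult1a1 and Sult2a8, Ces1c, Ces3a, Ces3b and Ces1f, and Gsta3 and Gstm3. Measured against background 9 of the 11 were still at least 1.5-fold higher, against 1.28% of all genes. Ces3b and Ces1f were not. Members above background through the Iso+Insl6 array alone had to differ, so the members were also chosen on the Control array, which this pair does not use, a choice added after the data had been seen. Of the 19 above background there, 5 were at least 1.5-fold higher on Iso+Insl6 than on Iso (Ces1c, Ces3a, Sult1a1, Gsta3 and Gstm3), 26.3% against 1.02% of 12264 genes chosen in the same way, and none was lower, against 0.383%. The median difference was 0.07 over these 19 and 0.33 over the 26, beside 0.00 over all genes. In whole ventricle, more cells of a kind and more RNA per cell cannot be told apart.

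**Figure D1:**
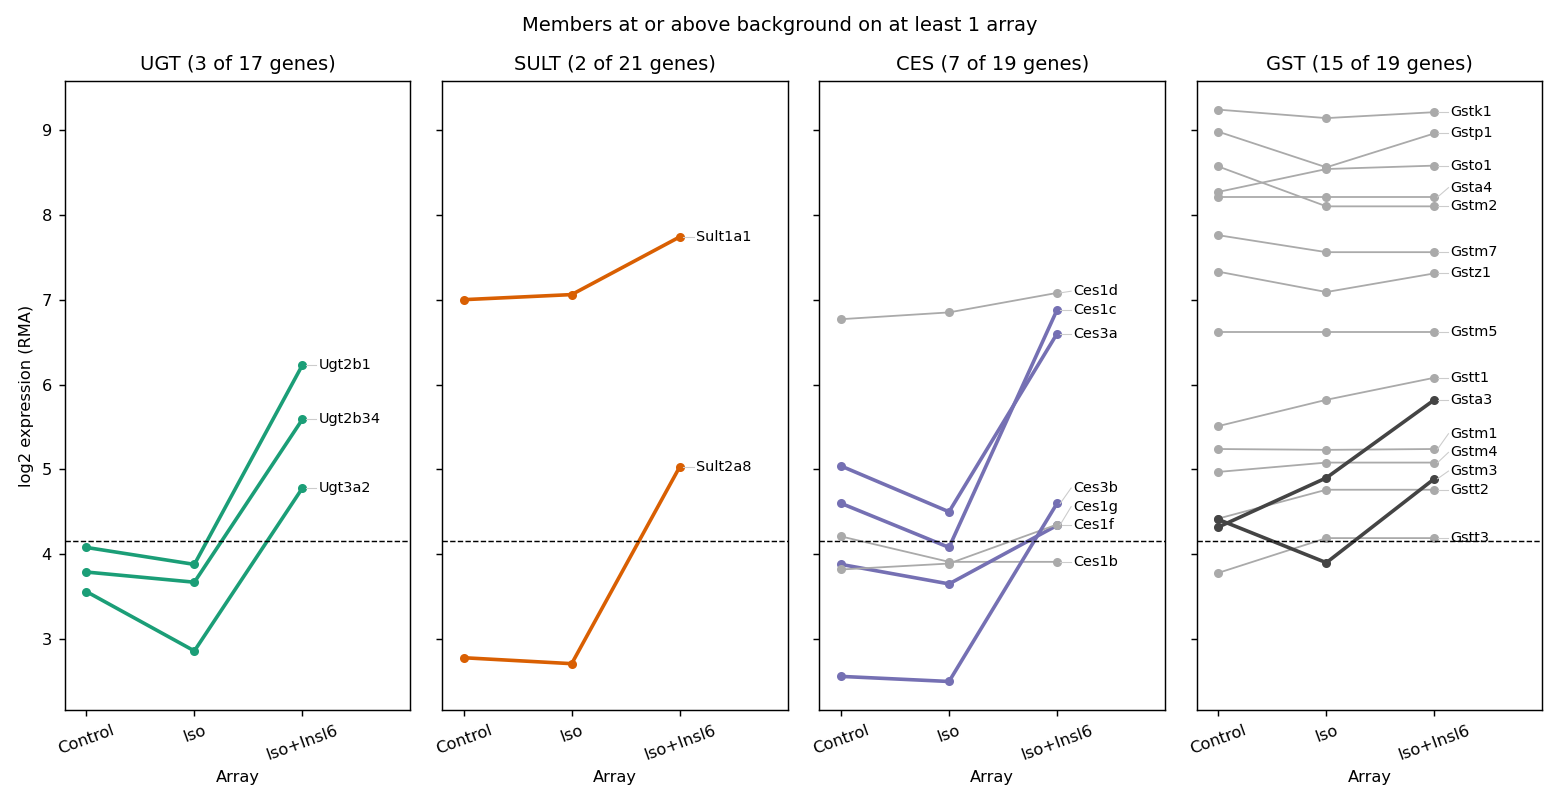
The log2 expression (vertical axis) of the 27 members at or above background on at least 1 array is plotted against the array (horizontal axis), by family, with 1 line per gene and 1 array per group. Coloured (UGT, SULT, CES) or dark (GST) lines mark the 11 genes at least 1.5-fold higher on Iso+Insl6 than on Iso, grey lines the others, and the dashed line the background of 4.16. GST genes such as Gstk1, Gsta4 and Gstm5 run nearly flat, while the 3 UGT genes cross background only on the Iso+Insl6 array.

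Among the UGT genes, those of the UGT2 and UGT3 groups crossed background with INSL6. Ugt2b1, a liver glucuronosyltransferase, stood at 4.08 on Control, 3.88 on Iso and 6.23 on Iso+Insl6, at least 4.20-fold higher with INSL6 than on either other array. Ugt2b34, of the same subfamily, stood at 3.79, 3.67 and 5.59, at least 2.69-fold higher. Ugt3a2, whose family uses sugars other than glucuronic acid, stood at 3.56, 2.86 and 4.78, at least 1.54-fold higher. Only the Iso+Insl6 array carried any UGT signal above background. Below background, listed differences went the same way for several more: Ugt2b36 was listed at 1.64, 1.19 and 3.50, Ugt2b5 at 1.43, 1.61 and 3.27, and Ugt1a6b at 2.56, 1.45 and 3.64. Ugt1a1, the enzyme that conjugates bilirubin, was listed at 2.97, 3.00 and 3.64, and Ugt1a7c, of the same locus, at 3.50, 3.65 and 3.93. The olfactory gene Ugt2a2 went the other way, at 2.36, 2.82 and 1.93. The genes of the Ugt1a locus differ only in their first exon, and the sources used here do not say how the authors' probe sets separate them.

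The SULT family had a single member with clear signal in Control ventricle. Sult1a1, which sulfates phenols, stood at 7.00 on Control, 7.06 on Iso and 7.74 on Iso+Insl6, 1.60-fold higher with INSL6 than on Iso and 1.67-fold higher than on Control. Control and Iso lay close together and Iso+Insl6 above both. Sult2a8, a bile acid sulfotransferase of mouse liver, was listed at 2.78, 2.71 and 5.03, at least 1.83-fold higher with INSL6. The other 19 genes stayed between 0.98 and 3.49. Among them, named by their listed Control values, Sult4a1, a brain enzyme, was listed at 3.49, 3.49 and 3.29, Sult2a4 at 3.26 throughout and Sult5a1 at 2.81 throughout. They also include the estrogen sulfotransferase Sult1e1, listed at 1.64 on every array, and the catecholamine-sulfating Sult1d1, listed at 2.25, 2.25 and 3.29.

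The widest gap of all members was in a carboxylesterase. Ces1c, the esterase that liver secretes into plasma, stood at 4.60 on Control, 4.08 on Iso and 6.88 on Iso+Insl6, at least 6.59-fold higher than on Iso and 4.86-fold higher than on Control. Ces3a, a liver enzyme, stood at 5.04, 4.50 and 6.60, 4.29-fold above Iso and 2.95-fold above Control. Both were highest on Iso+Insl6 and lowest on Iso. Ces3b, its neighbour, was listed at 2.56, 2.50 and 4.60, a listed difference of 2.10 from Iso but at least 1.36-fold against background. Ces1f was listed at 3.88, 3.65 and 4.34 and Ces1g at 3.82, 3.89 and 4.35, at least 1.13-fold and 1.14-fold. In contrast, Ces1d, the triacylglycerol hydrolase of liver and fat, stood at 6.77, 6.85 and 7.08, 1.17-fold above Iso. Ces1b stood at 4.21 on Control and 3.91 on both isoproterenol arrays. The 7 Ces2 genes lay at 4.08 or less on every array.

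Most of the GST genes above background on Control differed little with INSL6. Of 14 such genes 2 (14.3%) were at least 1.5-fold higher than on Iso, beside 1.02% of all genes chosen in the same way. The median difference over the 14 was 0.025. Gsta3, an alpha class enzyme known in mice for detoxifying aflatoxin, stood at 4.32 on Control, 4.90 on Iso and 5.82 on Iso+Insl6. It was 1.89-fold above Iso and 2.83-fold above Control, and it was 1.495-fold higher on Iso than on Control, just short of the threshold. Gstm3, of the mu class, stood at 4.41, 3.90 and 4.89, at least 1.66-fold above Iso but 1.40-fold above Control.

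The remaining GST genes differed less. Gsta4, which clears the lipid peroxidation product hydroxynonenal, was listed at 8.21 on all 3 arrays and the mu class Gstm5 at 6.62 on all 3. Gstk1, of mitochondria and peroxisomes, stood at 9.24, 9.14 and 9.21. Gsto1, a thioltransferase of the omega class, stood at 8.27, 8.54 and 8.58, and Gstz1, which acts in tyrosine breakdown, at 7.33, 7.09 and 7.31. Gstp1, of the pi class, was lowest on Iso at 8.56 against 8.98 on Control and 8.96 on Iso+Insl6. Gstm2, whose human counterpart modulates the cardiac ryanodine receptor, stood at 8.57 on Control and 8.10 on both isoproterenol arrays. Gstm7 followed at 7.76, 7.56 and 7.56. In the theta class Gstt1 stood at 5.51, 5.82 and 6.08, while Gstt2 (4.42, 4.76 and 4.76) and Gstt3 (3.78, 4.19 and 4.19) had equal values on both isoproterenol arrays. Gstm1 lay between 5.23 and 5.24 and Gstm4 between 4.97 and 5.08.

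**Figure D2:**
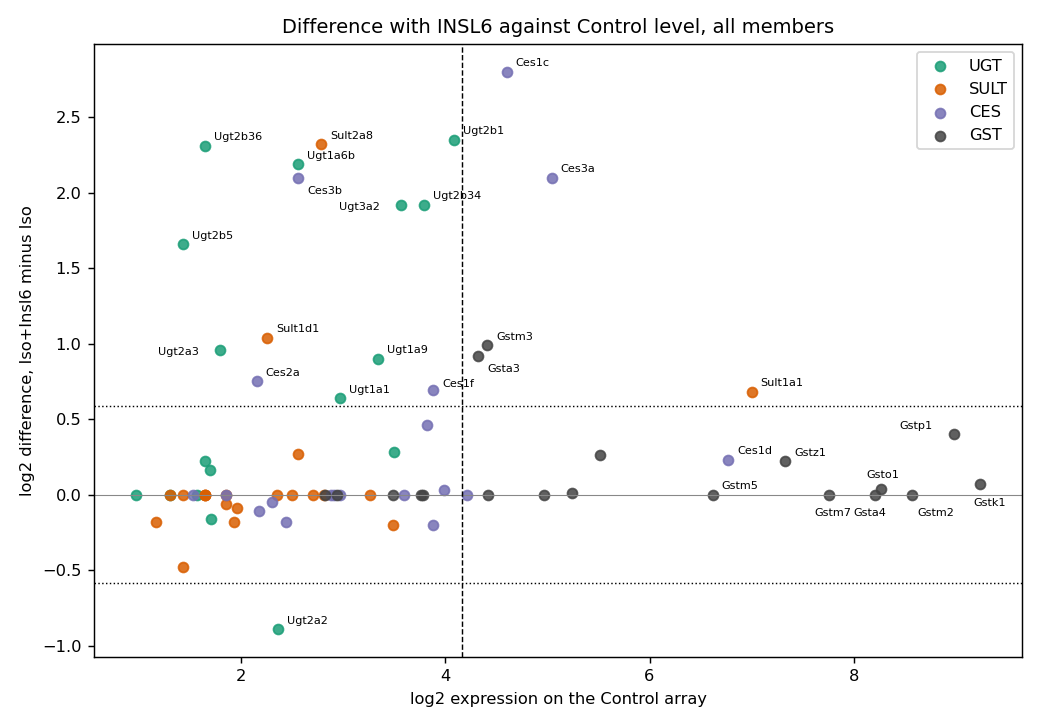
The log2 difference between Iso+Insl6 and Iso (vertical axis) is plotted against log2 expression on the Control array (horizontal axis) for all 76 members, 1 point per gene, coloured by family. The dashed line marks background (4.16) and the dotted lines 1.5-fold, and above a Control level of 6.5 only Sult1a1 passes 1.5-fold.

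Iso was set against Control to see what isoproterenol alone does. No member passed 1.5-fold in either direction among 20 above background, where 0.846% of 12415 genes were higher and 1.03% lower. Gsta3 came closest upward at 0.58, and Ces3a (-0.54), Ces1c (-0.52) and Gstm3 (-0.51) downward. Of the 20 members 8 were higher, 10 lower and 2 equal, with a median of -0.005 beside 0.00 over all genes. Below background on both arrays, Ugt1a6b (-1.11), Ugt3a2 (-0.70) and Sult2a6 (-0.62) were listed lower by over 1.5-fold. At any level these made 3 of 76 members lower and 0 higher, beside 0.994% and 0.80% of all genes.

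Iso+Insl6 against Control, which closes the triangle and shares an array with each comparison above, gave 9 of 27 members at least 1.5-fold higher (33.3%) and none lower, beside 1.96% and 0.789% of 12420 genes. Here too some members were above background through the Iso+Insl6 array alone and had to differ. Of the 17 members above background on Iso, the array outside this pair, 3 (Ces3a, Sult1a1 and Gsta3) were higher and none lower, beside 1.4% and 0.61% of 12300 genes. At any level 16 of 76 were higher and 2 lower, beside 1.5% and 0.956% of all genes. By family the 9 were 3 UGT, 2 SULT, 3 CES and 1 GST gene. Gstt1 (0.57) and Ces1g (0.53) lay just short and Sult1a1 (0.74) just past the threshold. Against Iso, the nearest genes were Sult1a1 (0.68) and Ces1f (0.69) inside and Ces1g (0.46) and Gstp1 (0.40) outside.

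Genes made by hepatocytes moved with this pattern. All 9 hepatocyte markers measured (Alb, Ttr, Trf, Ahsg, Apoa2, Fgb, Cyp2e1, Tat and Pck1) were above background on every array, at 4.45 to 8.78 on Control, 4.32 to 8.97 on Iso and 6.25 to 11.12 on Iso+Insl6. All 9 were at least 1.5-fold higher on Iso+Insl6 than on Iso, beside 1.49% of all genes, with differences of 1.44 to 3.19. The log2 of their summed level was 10.08, 10.07 and 12.27. Against Control, 1 of the 9 (Fgb, -0.71) was lower on Iso by over 1.5-fold, beside 1.03% of all genes. Of 8 liver transcription factors 3 lay above background and none passed 1.5-fold, which is close to the share over all genes. Hnf4a stood at 4.70, 4.66 and 5.13 and Foxa2 at 4.78 throughout. Of 5 Kupffer and sinusoid markers only Timd4 (4.33 on all arrays) was above background. The part of hepatocyte RNA in the UGT, SULT, CES and GST differences was not tested.

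Other tissues that carry these enzymes gave a mixed picture. In the kidney list (5 genes, 2 above background), Kap stood at 6.05, 4.67 and 6.36 and Slc34a1 at 4.42, 4.03 and 4.56, and the log2 summed level was 6.94, 6.14 and 7.14. In the lung airway list (4 genes, 2 above background), Scgb1a1 stood at 5.90, 5.96 and 4.06, with log2 summed levels of 6.65, 6.74 and 5.59. In the intestine list (4 genes) only Lgals4 was above background, at 6.47, 5.87 and 6.11, and the log2 summed levels were 6.68, 6.18 and 6.40. No adipocyte marker of 5 and no pancreatic acinar marker of 4 reached background, with log2 summed levels of 5.52 to 5.56 and 4.78 to 4.79. Their part in the differences was not tested either.

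The genes that feed the conjugation reactions were near level. Of 18 cofactor supply genes 16 were above background, and 0 of 16 passed 1.5-fold in any of the 3 comparisons, which is close to the share over all genes (1.49% higher and 0.506% lower for Iso+Insl6 against Iso). With INSL6 they lay between -0.15 and 0.14 of Iso. UDP-glucose dehydrogenase Ugdh, which makes the UGT donor, stood at 6.65, 6.53 and 6.53. Papss2, which makes the SULT donor, stood at 7.02, 6.92 and 7.06. Gclc, the rate-limiting subunit of glutathione synthesis, stood at 6.06, 6.06 and 6.08, and its modifier subunit Gclm at 6.56, 6.74 and 6.84.

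Of the regulators and NRF2 target genes, 0 of 13 above background passed 1.5-fold in each comparison, again close to the share over all genes. The stress regulator Nfe2l2 (8.15), its inhibitor Keap1 (5.64) and the aryl hydrocarbon receptor Ahr (5.85) had equal values on all arrays. The NRF2 targets Nqo1 (7.36, 7.36 and 7.46) and Hmox1 (4.93, 4.93 and 5.02) differed by at most 0.10, Srxn1 was listed at 4.91 throughout, and Txnrd1 stood at 7.20, 6.94 and 7.05. The xenobiotic receptors Nr1i2 (3.26 throughout) and Nr1i3 (3.58, 4.04 and 4.04) lay below background.

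Of 12 transporters of conjugates above background 3 were higher with INSL6 than on Iso and none lower, beside 1.49% and 0.506% of all genes. All 3 were above background on the Iso+Insl6 array alone and had to differ. Of the 9 transporters above background on Control 0 passed 1.5-fold. That is close to the share of all genes chosen in the same way (1.02% higher and 0.383% lower). The 3 were the canalicular exporter Abcc2 (3.73, 3.90 and 5.37), the liver organic anion importer Slco1b2 (2.84, 2.46 and 4.80) and the bile acid importer Slc10a1 (3.91, 3.88 and 5.87). Abcc5 (6.21) and Abcc4 (5.67) were equal on all arrays. The efflux pump Abcg2 stood at 6.28, 6.79 and 7.00 and Abcb1b at 4.87, 4.93 and 5.49, both past 1.5-fold on Iso+Insl6 against Control. They were 2 of the 9 transporters above background on Iso, beside 1.4% of all genes chosen in the same way.

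Of 16 other conjugating and hydrolytic enzymes above background 3 were higher with INSL6 than on Iso, beside 1.49% of all genes. Of the 14 above background on Control 1 (Inmt) was higher, beside 1.02% of all genes chosen in the same way. Glycine conjugase Glyat was listed at 3.36, 3.30 and 4.73, the plasma paraoxonase Pon1 at 3.24, 3.11 and 5.08, and the amine methyltransferase Inmt at 5.43, 5.28 and 6.24. Pon3 (7.07) and Ephx2 (9.07) were equal on all arrays. Ephx1, the microsomal epoxide hydrolase, differed in the other comparison. It stood at 7.22 on Control, 8.04 on Iso and 8.09 on Iso+Insl6, 1.77-fold higher on Iso than on Control. Of the 14 enzymes above background on that pair it alone was higher, beside 0.846% of all genes.

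**Figure D3:**
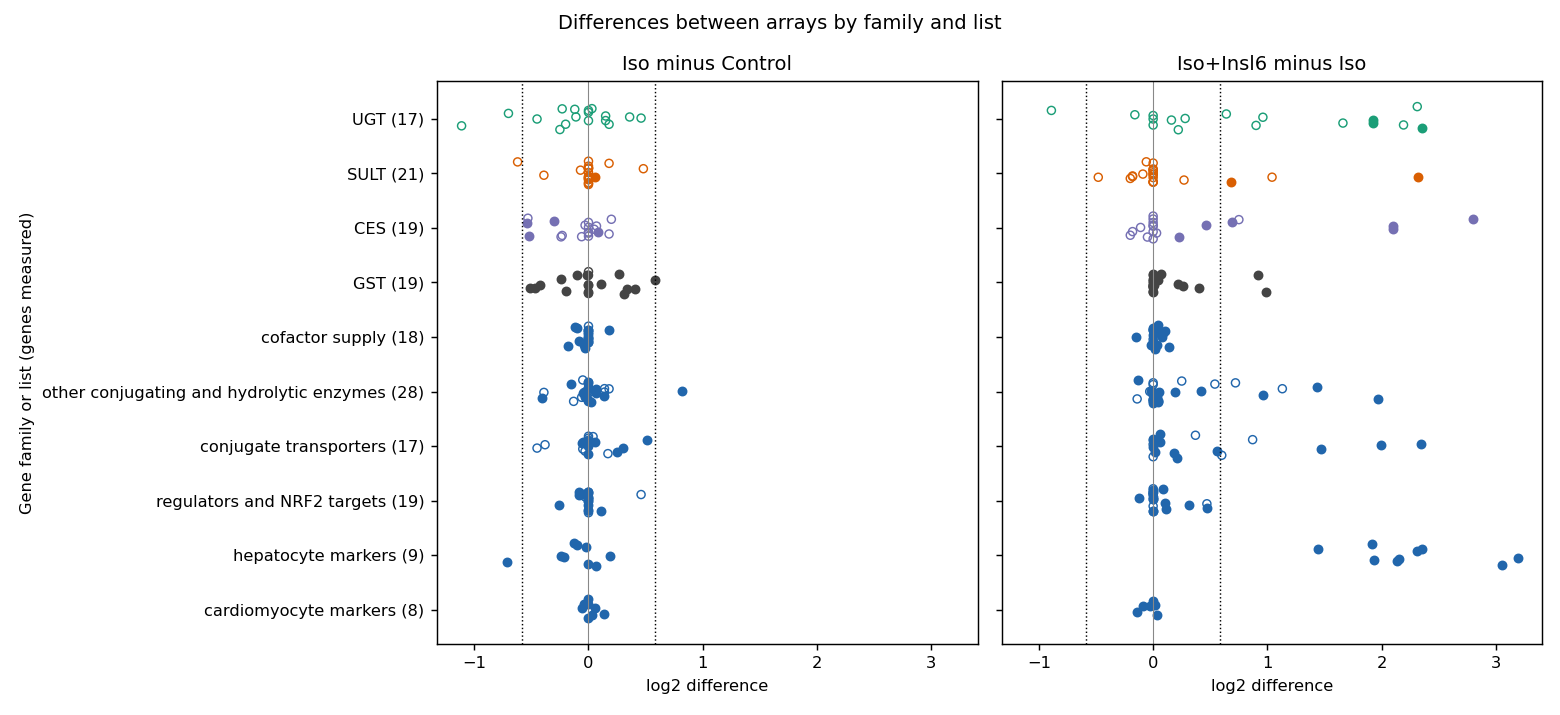
Log2 differences (horizontal axis) are plotted for every measured gene of the 4 families and 6 lists (vertical axis), Iso minus Control on the left and Iso+Insl6 minus Iso on the right, with filled points for genes above background on the pair and open points for the rest. Dotted lines mark 1.5-fold. Vertical scatter within a row only separates points. On the right all 9 hepatocyte markers lie between 1.44 and 3.19 and all cofactor supply genes between -0.15 and 0.14.

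Paralogs that sit side by side in the genome could be compared where both were above background on at least 1 array of the pair. In RefSeq's gene order (GRCm38.p6) the 8 Ces1 genes on chromosome 8 are uninterrupted by other measured genes. Within them Ces1c was at least 6.59-fold higher than on Iso, while Ces1d after it was 1.17-fold higher. Farther along, the neighbours Ces1f and Ces1g crossed background on Iso+Insl6, at least 1.13-fold and 1.14-fold higher. Among 7 Gstm genes on chromosome 3, Gstm3 was at least 1.66-fold higher, and the 5 others above background differed by 0.00 to 0.01. In the Ces3 and Ugt2b pairs below both neighbours were higher, while the Sult2a row gave no such comparison. In the Gstt row on chromosome 10, the neighbours Gstt3 and Gstt1 differed by 0.00 and 0.26. In the row of 10 genes from Ces2a to Ces4a, Ces3a (4.29-fold) and Ces3b (at least 1.36-fold) lie next to each other, and the other 8 were below background on all arrays. Sult2a8 (at least 1.83-fold) was 1 of 8 Sult2a genes on chromosome 7, and the other 7 were below background on all arrays. The Ugt2 row of 10 genes on chromosome 5 held Ugt2b34 (at least 2.69-fold) and Ugt2b1 (at least 4.20-fold) next to each other. No other gene of that row was above background. Close paralogs can share probe sequence, and cross-hybridisation was not tested.

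**Figure D4:**
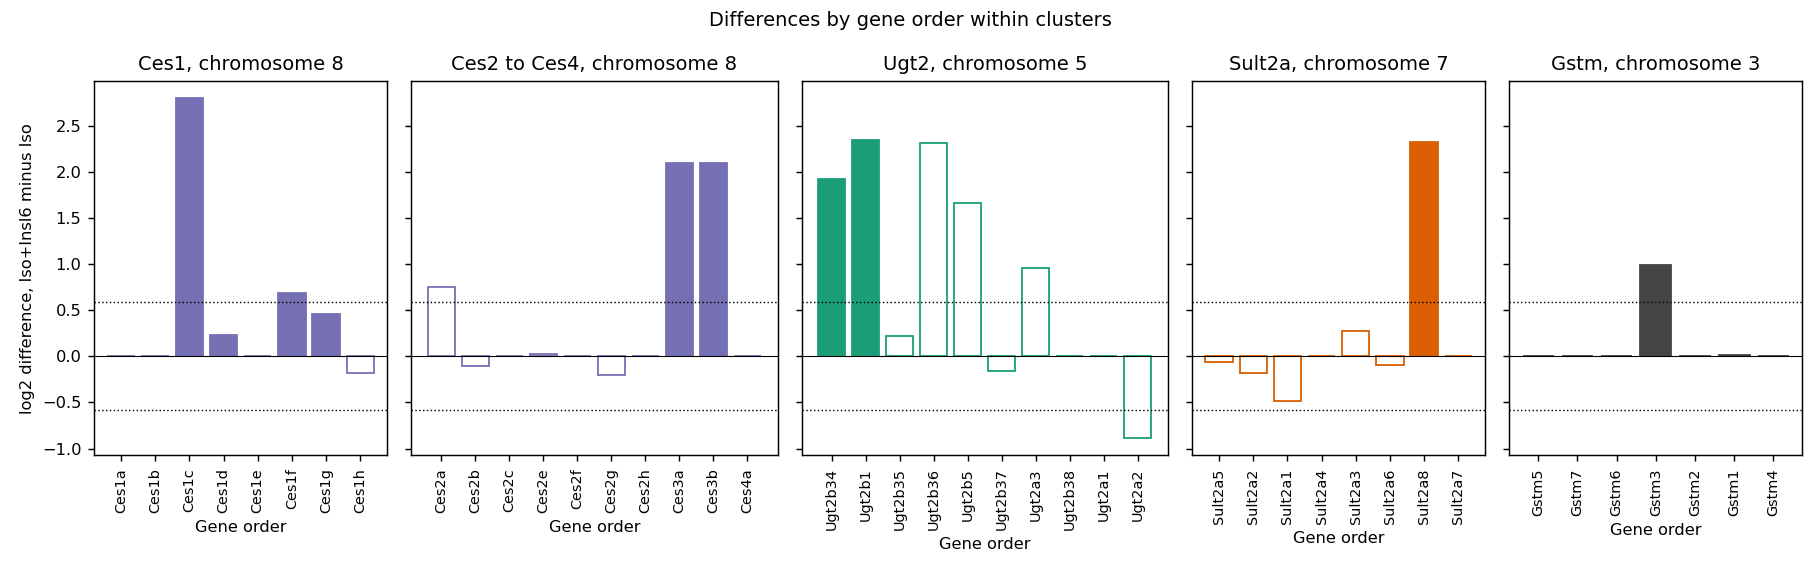
Bars give the log2 difference between Iso+Insl6 and Iso (vertical axis) for each gene in genome order (horizontal axis) within 5 gene rows, filled where the gene lay above background on Iso or Iso+Insl6 and open where it did not, with dotted lines at 1.5-fold. Genes at 0.00 show no bar. Bars are listed differences, and bars such as those of Ces1c, Ces3b, Sult2a8, Gstm3, Ugt2b1 and Ugt2b34 start from a value below background on Iso, so their heights are not measured folds.

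Promoter sequence was read for members that were higher with INSL6. RefSeq's table (GRCm38.p6) held a promoter for 64 of 76 members and for 8 of the 11 higher ones, and the 250 bases before the annotated start were searched on both strands for 4 motifs. The motifs were CAAAGTC (part of the HNF4 site), TGACNNNGC (the antioxidant response element core bound by NRF2), GCGTG (the xenobiotic response element core bound by the aryl hydrocarbon receptor) and TATAAA (the TATA box). CAAAGTC was found in 1 of the 8 higher members (Gstm3), in 2 of all 64 members (3.1%) and in 3.8% of 27025 genes. TGACNNNGC was found in 1 of the 8 (Gsta3), in 2 of 64 members and in 10.1% of all genes. TATAAA was found in 2 of the 8 (Ces3b and Sult2a8), in 13 of 64 members (20.3%) and in 13.0% of all genes. GCGTG was found in 0 of the 8, in 5 of 64 members (7.8%) and in 28.2% of all genes. Among 11 members above background on Control that spanned under 1.5-fold over the 3 arrays, GCGTG was found in 3, TGACNNNGC and TATAAA in 1 each and CAAAGTC in 0. A match is a description of the letters, not a binding site. The 4 higher members with a match are shown with Gstm2, the neighbour of Gstm3, which held none of the motifs. Sequences run 5′ to 3′ toward the start site, and capitals mark matches to any of the 4 motifs on either strand.
Ces3b, chr8:105083505-105083754, + strand: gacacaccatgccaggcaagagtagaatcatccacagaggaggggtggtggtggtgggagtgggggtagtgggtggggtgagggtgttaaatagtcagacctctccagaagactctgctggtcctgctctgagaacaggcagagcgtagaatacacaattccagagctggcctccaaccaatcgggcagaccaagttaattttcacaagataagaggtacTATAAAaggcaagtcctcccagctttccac
Sult2a8, chr7:14446588-14446837, - strand: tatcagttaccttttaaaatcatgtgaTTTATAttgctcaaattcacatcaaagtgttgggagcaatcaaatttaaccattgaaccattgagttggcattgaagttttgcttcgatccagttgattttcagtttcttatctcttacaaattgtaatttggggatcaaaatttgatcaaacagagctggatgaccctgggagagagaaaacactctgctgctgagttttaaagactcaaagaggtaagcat
Gsta3, chr1:21240335-21240584, + strand: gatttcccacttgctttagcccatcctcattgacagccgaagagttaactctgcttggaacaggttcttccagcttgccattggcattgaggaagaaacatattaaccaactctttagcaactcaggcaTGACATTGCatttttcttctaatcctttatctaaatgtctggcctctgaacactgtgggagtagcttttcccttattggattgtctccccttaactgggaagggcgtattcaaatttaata
Gstm3, chr3:107969175-107969424, - strand: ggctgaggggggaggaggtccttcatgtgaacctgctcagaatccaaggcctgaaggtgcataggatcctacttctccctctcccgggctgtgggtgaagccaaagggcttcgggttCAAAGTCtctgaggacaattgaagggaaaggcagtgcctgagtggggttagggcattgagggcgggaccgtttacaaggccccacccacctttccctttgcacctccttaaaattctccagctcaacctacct
Gstm2, chr3:107986421-107986670, - strand: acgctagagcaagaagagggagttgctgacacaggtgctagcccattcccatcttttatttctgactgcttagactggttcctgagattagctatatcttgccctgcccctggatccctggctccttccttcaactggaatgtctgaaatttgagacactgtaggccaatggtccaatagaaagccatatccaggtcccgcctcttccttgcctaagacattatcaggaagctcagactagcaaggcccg
In Ces3b the TATAAA match begins 30 bases before the start. In Sult2a8 it lies on the opposite strand and begins 223 bases before the start. In Gsta3 the TGACNNNGC match begins at 121 bases, and in Gstm3 the CAAAGTC match begins at 133 bases.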

How the data were processed

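Left ventricle RNA was measured on 3 arrays, 1 per group, each a pool of 3 RNA samples per the labels. Values deposited by the authors are on the log2 scale, with 1 value per probe set and array. The submitters' processing notes name RMA and affy 1.36.1, and the settings, array type and build are not given in the sources used here. The median difference over genes above background was 0.0 in each comparison. Array medians over genes above background on all 3 arrays lay at 0.0 (Control), -0.02 (Iso) and 0.02 (Iso+Insl6) from their mean. Because 42.7% of genes above background were listed with identical values on all 3 arrays, small differences are coarse. Of the 27 members above background 2 (7.4%) had such values. The shares over all genes thus include more genes with no difference at all than the members do.

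Probe sets carry Entrez gene numbers, and symbols came from RefSeq (GRCm38.p6). The platform table gave the same symbol for 75 of 76 members, and 1 was not in it. Members and lists were chosen with earlier results of these data known. By rule, members past 1.5-fold were named (up to 8 per family, comparison and direction), as were the 4 highest of each family on Control, and members below background on all arrays were given by counts and range. Other examples below background and from the lists were chosen with their values in view. Differences were taken between log2 values as deposited, with Python 3.11.15, numpy 2.4.6, pandas 2.3.3 and matplotlib 3.10.9, and no test was possible with 1 array per group. The number of arrays limits the precision. The counting step was tested on simulated data.

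Other settings tried were a threshold of 2-fold, counting members at any level, and background at 5. A level filter at 3.71 (the 95th percentile of olfactory, vomeronasal and keratin-associated genes) was also tried. So were centring on expressed genes, cyclic loess (limma 3.58.1, R 4.3.3), and leaving out members with the same values as another of their family. Promoters were the first RefSeq window per gene. Scanner files were not used here, and some planned items are not reported here. The list genes Sts and Serpina1a were not analysed here, and list genes fixed under other symbols were matched as Trf and Bpnt2.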

Additional observations from a re-analysis of the deposited data

How the results depend on the processing

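No paired analysis was possible because each group has 1 array. Under cyclic loess or the filter at 3.71, all counts past 1.5-fold stayed within 1.5 times of those reported, for each family and comparison. Leaving out members that share all their values with another of their family removed Sult1e1, Sult3a1 and Sult6b1 (1.64 on every array). Those genes lie below background, so no count could change. Centring moved members by at most 0.04 and cyclic loess by 0.0, so no difference of a called member could change sign. Centring took Gsta3 past 1.5-fold for Iso against Control, so that 1 member (1 GST) was higher instead of 0. At a 2-fold threshold on listed values, members higher on Iso+Insl6 than on Iso went from 11 to 7, with SULT at 1 and GST at 0. SULT higher than Control went to 1. With background at 5, members higher than on Iso went to 7, with CES at 2 and GST at 1. With no filter on level, 19 members were higher and 1 lower on Iso+Insl6 than on Iso (UGT 9 and 1). Against Control 16 were higher and 2 lower (UGT 9 higher, SULT 1 and CES 1 lower), and on Iso 3 were lower than on Control (UGT 2, SULT 1). Those added members lie below background on both arrays. An alternative, added after the data had been seen, chose members on the array outside each pair. Then 5 of 19 were higher on Iso+Insl6 than on Iso, beside 1.02% of all genes chosen in the same way. Against Control 3 of 17 were higher on Iso+Insl6, beside 1.4%. Of 26 members chosen on Iso+Insl6, 1 (Ugt3a2) was lower and 0 higher on Iso than on Control, beside 0.929% and 0.717% of 12272 genes. Ugt3a2 lay below background on both arrays of that pair (3.56 and 2.86). Medians over members also depended on the filter: for Iso+Insl6 minus Iso over all members it was 0.33 as reported, 0.23 with background at 5 and 0.00 with no filter.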
